A study of Mus musculus with 13 samples.

Results

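The 10 genes described here, Trem2, Tyrobp, Apoe, Lpl, Cst7, Clec7a, Itgax, Axl, Gpnmb and Lyz2, are widely used to mark disease-associated microglia. They were chosen by symbol, and all 10 were found among the 55416 gene identifiers of the count table and passed the filter on low counts. RNA-seq of whole mouse brain gave 13 libraries, which fall into 4 groups. KO mice (Slco1c1-iCreERT2;Pdcd10fl/fl) had lost Pdcd10, also called Ccm3, in endothelium through a tamoxifen-inducible Cre recombinase, given 50 µg of 4-hydroxytamoxifen into the stomach on postnatal day 1. There were 3 KO libraries in normoxia (21% oxygen) and 4 in hypoxia (12% oxygen for 7 days). Each was set against flox littermates (Pdcd10fl/fl, loxP-flanked gene without Cre), with 3 libraries at each oxygen level. Loss of Pdcd10 in endothelium models cerebral cavernous malformation, a disease of enlarged, leaky brain capillaries. The Cre is driven by the Slco1c1 promoter, which is active in brain endothelium, so microglia were not the cells targeted. Transgene, loss of Pdcd10 and, if the flox mice were not injected, which the sources leave unstated, the injection cannot be told apart. Age at tissue collection is not given in the sources used here.

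Microglia are the resident macrophages of the brain. Trem2 is a microglial surface receptor for lipids, lipoproteins and cell debris, and it signals through the adaptor Tyrobp, also called DAP12, whose phosphorylated tail recruits the kinase Syk. In mouse models of neurodegeneration, microglia pass through an early step that does not need Trem2, in which genes such as Tyrobp, Apoe and Lyz2 are raised, and a later Trem2-dependent step that raises genes such as Lpl, Cst7, Axl, Itgax and Clec7a. Several of these genes are not restricted to microglia. Apoe is made in bulk by astrocytes, Lpl and Axl are also made by other brain cells, and Itgax, Clec7a and Lyz2 are expressed by border macrophages, monocytes or dendritic cells.

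Total counts ran from 42090437 to 71216636 per library. Pdcd10 itself lay between 14.7 and 18.1 CPM (counts scaled to library total and TMM composition factor) in all 13 libraries and was not called between KO and flox, with a log2 fold change of -0.02 ± 0.07 (SE, edgeR adjusted p = 0.962) at 21% oxygen and of -0.09 ± 0.07 (adjusted p = 0.47) at 12% oxygen. The Cre was directed at endothelium, and where it acted was not measured here, so this level does not check the genotype labels. All 13 libraries are labelled male, yet 4 of them held Xist in place of Y-linked transcripts, namely KO hypoxia replicates 3 and 4, KO normoxia replicate 3 and flox normoxia replicate 3. KO hypoxia replicate 1 stood apart from the other 3 libraries of its group in several markers of other cells. Main results are therefore also given without these libraries. The microglial transcripts P2ry12, Tmem119, Cx3cr1 and Csf1r were detected in the tissue as part of a list of 16 homeostatic microglia genes, whose summed level is given with the members.

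In hypoxia, 7 of the 10 genes were higher in KO than in flox brains: Trem2 and Tyrobp by less than 2-fold, and Clec7a, Itgax, Cst7, Gpnmb and Lyz2 by more than 3-fold. Apoe, Lpl and Axl were not called. Of all 22507 genes tested, 6.78% were called higher in this comparison and 2.28% lower. In normoxia 1 of the 10 genes, Lyz2, was higher in KO, against 1.96% of all genes called higher and 0.369% called lower. A gene was called at an adjusted p under 0.05 (edgeR quasi-likelihood test, adjusted over all genes tested). The median log2 fold change of the 10 genes was 1.19 in hypoxia and 0.27 in normoxia, beside -0.01 and -0.004 over all genes. In bulk tissue, fewer or more cells of a type and less or more RNA per cell cannot be told apart. Summed markers of border macrophages, which express several of these genes, lay at 17.6 to 33.0 CPM in KO hypoxia brains, against 8.91 to 9.57 CPM in flox hypoxia brains, and their part in the result was not tested.

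**Figure D1:**
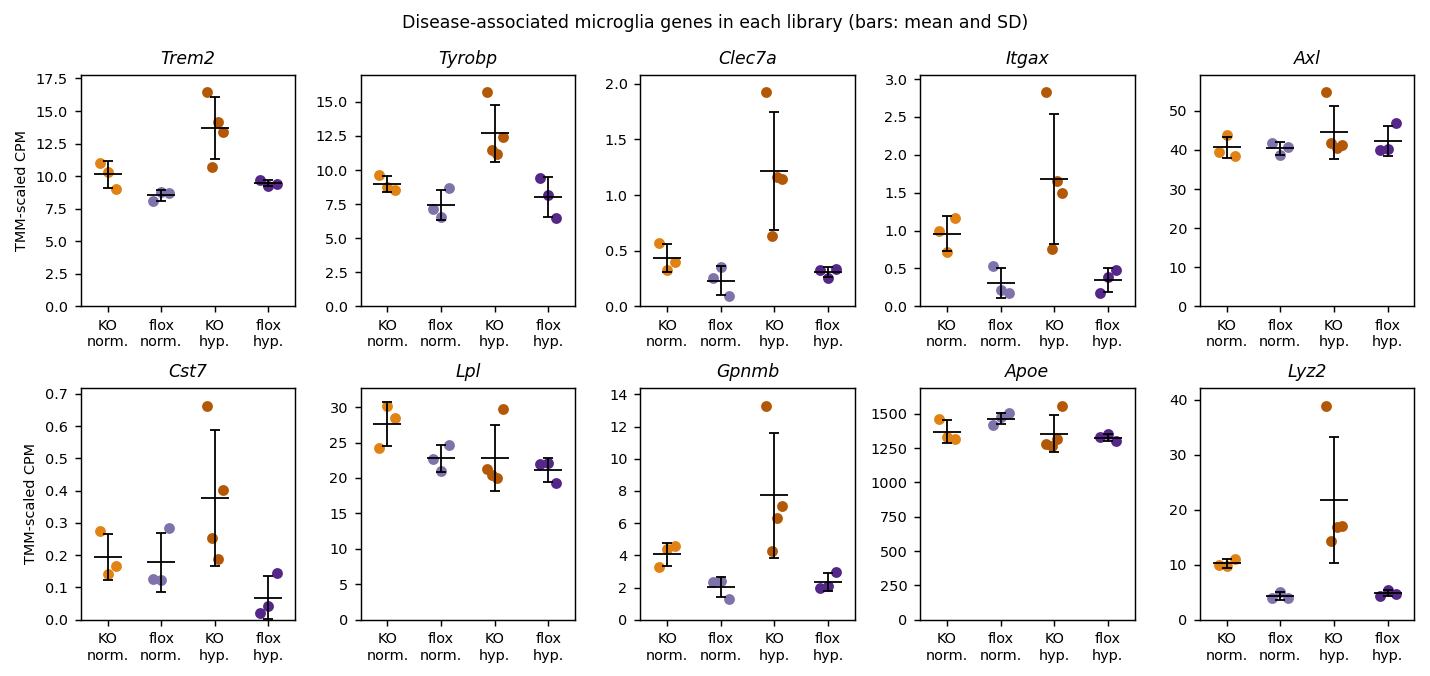
TMM-scaled CPM of each of the 10 genes in each library (points), by genotype and oxygen level, with the mean and SD as bars and every axis starting at 0. In hypoxia the 4 KO libraries lie above the 3 flox libraries for Trem2, Tyrobp, Clec7a, Itgax, Cst7, Gpnmb and Lyz2, while the groups overlap for Axl, Lpl and Apoe.

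The receptor pair was raised together in hypoxia. Trem2 (ENSMUSG00000023992) had 16.4, 10.7, 14.2 and 13.4 CPM in KO hypoxia brains, against 9.70, 9.28 and 9.39 CPM in flox hypoxia brains. Every KO library lay above every flox library, and KO replicate 2 was the closest to them. The log2 fold change was 0.53 ± 0.12 (SE, edgeR adjusted p = 0.0078). Tyrobp, the adaptor, had 15.7, 11.5, 11.1 and 12.5 CPM in KO hypoxia brains, against 9.43, 8.14 and 6.50 CPM in flox hypoxia brains. Again the groups did not overlap, and the log2 fold change was 0.66 ± 0.14 (adjusted p = 0.00679). In normoxia Trem2 had 11.03, 10.3 and 9.04 CPM in KO brains, against 8.06, 8.75 and 8.74 CPM in flox brains. These groups did not overlap either, but the log2 fold change of 0.25 ± 0.12 was not called (adjusted p = 0.393). Tyrobp in normoxia was at 8.98 ± 0.577 CPM in KO and 7.44 ± 1.08 CPM in flox brains (SD, n = 3 each), a log2 difference of 0.27 ± 0.15 that was not called (adjusted p = 0.464).

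Trem2 and Tyrobp varied alike across the 13 libraries. The root mean square difference between their log2 CPM profiles, each centred on its own mean, was 0.167, and 0.235% of 16564 genes compared lay nearer to Trem2 than Tyrobp did. The nearest to Trem2 were Itgb1 (0.081), Tmem123 (0.081), Laptm5 (0.084), Ostf1 (0.098) and Cyth4 (0.0996). Around Tyrobp they were Stab1 (0.120), Jak3 (0.126), Pld4 (0.132), Pxdc1 (0.136) and Arpc1b (0.136). All these distances are descriptions over the same 13 libraries, which share their depth and tissue make-up. On the same measure Clec7a, Itgax, Cst7, Gpnmb and Lyz2 lay between 0.619 and 0.928 from Trem2 or Tyrobp. That was farther than 98.7% to 99.7% of the genes compared. Axl, Apoe and Lpl lay at 0.250, 0.325 and 0.369 from Trem2, with 10.5%, 52.1% and 78.4% of genes nearer. This distance grows with the size of a gene's own variation. The root mean square of the centred profile was 0.857 to 1.14 for those 5 genes, 0.295 for Trem2 and 0.355 for Tyrobp. A long distance therefore does not mean that a gene rose in other libraries.

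The start regions of 4 genes called higher in KO in hypoxia, Trem2, Clec7a, Itgax and Lyz2, are shown because many myeloid genes are driven by promoters that the factor PU.1 binds. Each line gives the 250 bases before the RefSeq transcription start, 5′ to 3′ on the gene's strand (build GRCm38.p6), at chr17:48346151-48346400 (plus strand) for Trem2, chr6:129472780-129473029 (minus strand) for Clec7a, chr7:128129300-128129549 (plus strand) for Itgax and chr10:117282273-117282522 (minus strand) for Lyz2. Capitals mark the PU.1 core GAGGAA or its reverse complement TTCCTC, and the AP-1 site TGANTCA, in which N is any base.
Trem2: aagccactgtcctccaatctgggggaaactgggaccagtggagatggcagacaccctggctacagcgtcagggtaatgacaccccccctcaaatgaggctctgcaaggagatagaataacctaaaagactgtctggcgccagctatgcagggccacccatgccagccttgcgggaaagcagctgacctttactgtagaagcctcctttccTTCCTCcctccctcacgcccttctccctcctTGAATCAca
Clec7a: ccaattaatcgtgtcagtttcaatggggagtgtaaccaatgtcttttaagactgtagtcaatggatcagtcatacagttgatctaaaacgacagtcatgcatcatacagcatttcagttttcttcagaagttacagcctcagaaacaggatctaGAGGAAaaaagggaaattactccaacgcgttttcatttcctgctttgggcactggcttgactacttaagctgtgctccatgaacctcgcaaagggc
Itgax: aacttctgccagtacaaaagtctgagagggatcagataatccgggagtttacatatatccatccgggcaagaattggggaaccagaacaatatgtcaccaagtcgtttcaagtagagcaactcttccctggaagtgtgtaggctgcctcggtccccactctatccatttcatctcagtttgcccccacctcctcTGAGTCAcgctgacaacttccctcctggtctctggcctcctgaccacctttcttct
Lyz2: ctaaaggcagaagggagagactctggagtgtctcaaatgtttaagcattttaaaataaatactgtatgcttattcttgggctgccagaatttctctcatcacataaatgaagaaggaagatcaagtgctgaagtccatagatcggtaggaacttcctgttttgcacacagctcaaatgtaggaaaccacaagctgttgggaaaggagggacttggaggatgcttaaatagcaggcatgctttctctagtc
Trem2 held a PU.1 core starting at base -40 and an AP-1 site starting at -9, counted back from the transcription start. Clec7a held a PU.1 core at -96, Itgax an AP-1 site at -56, and Lyz2 neither. Cst7 and Gpnmb, called higher in hypoxia as well but not printed, also held neither. Of the 8 members in the RefSeq promoter table, 4 held the PU.1 core (Trem2, Clec7a, Apoe and Axl, of which Apoe and Axl were not called) and 2 the AP-1 site, against 23.1% and 6.87% of 27025 promoters of the same length. The E-box CACGTG, a core bound by Tfeb and Mitf, was in 0 of the 8, against 6.05% of all promoters. A match to these letters, or the lack of one, is a description of the window and no evidence of binding or of its absence. Other forms of these sites were not searched for.

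The surface proteins of the later step went apart. Clec7a, or Dectin-1, a receptor for fungal glucans that also signals through Syk, had 1.92, 0.631, 1.16 and 1.14 CPM in KO hypoxia brains, against 0.328, 0.257 and 0.334 CPM in flox hypoxia brains. These are 279 counts in the 4 KO libraries and 43 in the 3 flox libraries. No KO library overlapped the flox group, and the log2 fold change was 1.98 ± 0.42 (SE, edgeR adjusted p = 0.00669). Itgax, the alpha chain of the integrin CD11c/CD18, had 2.82, 0.757, 1.65 and 1.501 CPM in KO hypoxia brains, against 0.174, 0.386 and 0.478 CPM in flox hypoxia brains. Its groups were separate as well, with KO replicate 2 the lowest and replicate 1 the highest, and a log2 fold change of 2.31 ± 0.47 (adjusted p = 0.00511). Axl, a receptor tyrosine kinase through which phagocytes clear dying cells, had 54.7, 41.8, 40.5 and 41.2 CPM in KO hypoxia brains, against 40.1, 40.1 and 46.8 CPM in flox hypoxia brains. KO replicate 1 was high and the other 3 lay among the flox values, with a log2 fold change of 0.08 ± 0.09 (adjusted p = 0.701).

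In normoxia Itgax had 0.995, 0.713 and 1.17 CPM in KO brains, against 0.539, 0.213 and 0.180 CPM in flox brains. All 3 KO libraries lay above the flox libraries, and the log2 fold change of 1.63 ± 0.49 missed the threshold (edgeR adjusted p = 0.116), though DESeq2 called it (adjusted p = 0.0243). Clec7a in normoxia was at 0.432 ± 0.126 CPM in KO and 0.232 ± 0.133 CPM in flox brains (SD, n = 3 each), with overlapping libraries and a log2 fold change of 0.90 ± 0.47 (SE, adjusted p = 0.434). Axl was at 40.6 ± 2.79 CPM in KO and 40.4 ± 1.60 CPM in flox brains and did not separate them.

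Among the lysosomal and lipid-handling members, Gpnmb changed and Lpl was not called. Gpnmb, a transmembrane glycoprotein induced in macrophages under lysosomal stress, had 13.3, 4.29, 6.31 and 7.04 CPM in KO hypoxia brains, against 1.95, 2.12 and 2.96 CPM in flox hypoxia brains. Every KO library was above every flox library, replicate 1 by far the most, and the log2 fold change was 1.73 ± 0.32 (SE, edgeR adjusted p = 0.0028). In normoxia Gpnmb had 3.26, 4.42 and 4.56 CPM in KO brains, against 2.35, 2.41 and 1.30 CPM in flox brains, again without overlap but not called (1.03 ± 0.34, adjusted p = 0.165). Cst7, or cystatin F, an inhibitor of cysteine cathepsins in the lysosomes of immune cells, was the scarcest gene of the 10. It had 39, 14, 13 and 18 counts in KO hypoxia brains, against 1, 2 and 6 counts in flox hypoxia brains. The ratio of the summed counts, scaled for depth, was 5.75 with a 95% interval of 2.889 to 13.01 that covers counting error only, and the log2 fold change was 2.48 ± 0.66 (adjusted p = 0.0255). This call is the least firm of the 7: without KO replicate 1 its log2 fold change was 2.04 (adjusted p = 0.0795), without flox replicate 1 it was 2.01 (0.123) and without flox replicate 2 it was 2.26 (0.119). In normoxia Cst7 had 13, 10 and 8 counts in KO brains, against 7, 7 and 19 in flox brains, and the groups overlapped.

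Lpl, the lipase that frees fatty acids from lipoproteins, had 21.2, 20.4, 19.99 and 29.8 CPM in KO hypoxia brains, against 22.0, 22.1 and 19.2 CPM in flox hypoxia brains. KO replicate 4 was high and the other 3 lay among or below the flox values, with a log2 fold change of 0.11 ± 0.12 (SE, edgeR adjusted p = 0.672). In normoxia Lpl was at 27.7 ± 3.07 CPM in KO and 22.7 ± 1.88 CPM in flox brains (SD, n = 3 each), a log2 difference of 0.28 ± 0.13 that was not called (adjusted p = 0.352).

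Apoe and Lyz2, both of the early step, parted in hypoxia. Apoe, the main lipid carrier of the brain, had 1283, 1266, 1314 and 1559 CPM in KO hypoxia brains, against 1330, 1350 and 1299 CPM in flox hypoxia brains. KO replicates 1, 2 and 3 lay within or just below the flox range and replicate 4 above it, with a log2 fold change of 0.03 ± 0.06 (SE, edgeR adjusted p = 0.821). In normoxia Apoe had 1464, 1332 and 1314 CPM in KO brains, against 1418, 1473 and 1503 CPM in flox brains, and was not called (-0.10 ± 0.06, adjusted p = 0.574). Lyz2, the lysozyme of macrophages and neutrophils, was the gene with the smallest adjusted p of the 10 in both comparisons. It had 38.9, 14.2, 16.8 and 17.1 CPM in KO hypoxia brains, against 4.32, 5.44 and 4.68 CPM in flox hypoxia brains. No library overlapped, replicate 1 stood far above the other KO libraries, and the log2 fold change was 2.18 ± 0.28 (adjusted p = 0.00016). Without that library it was 1.74 (adjusted p = 3.79e-07).

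In normoxia Lyz2 had 9.93, 9.68 and 11.1 CPM in KO brains, against 3.93, 5.10 and 3.89 CPM in flox brains. The KO libraries were again all higher, by 1.25 ± 0.29 on the log2 scale (SE, edgeR adjusted p = 0.0358). That call was lost when any 1 of the 6 normoxia libraries was left out (log2 fold change 1.18 to 1.38, adjusted p 0.0618 to 0.135). It was lost, too, among the 9 libraries with Y-linked transcripts (adjusted p = 0.178). The paralog Lyz1 lies next to Lyz2 and held 2 to 19 counts per library, so reads that fit both genes may have been split between them by the authors' counting.

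**Figure D2:**
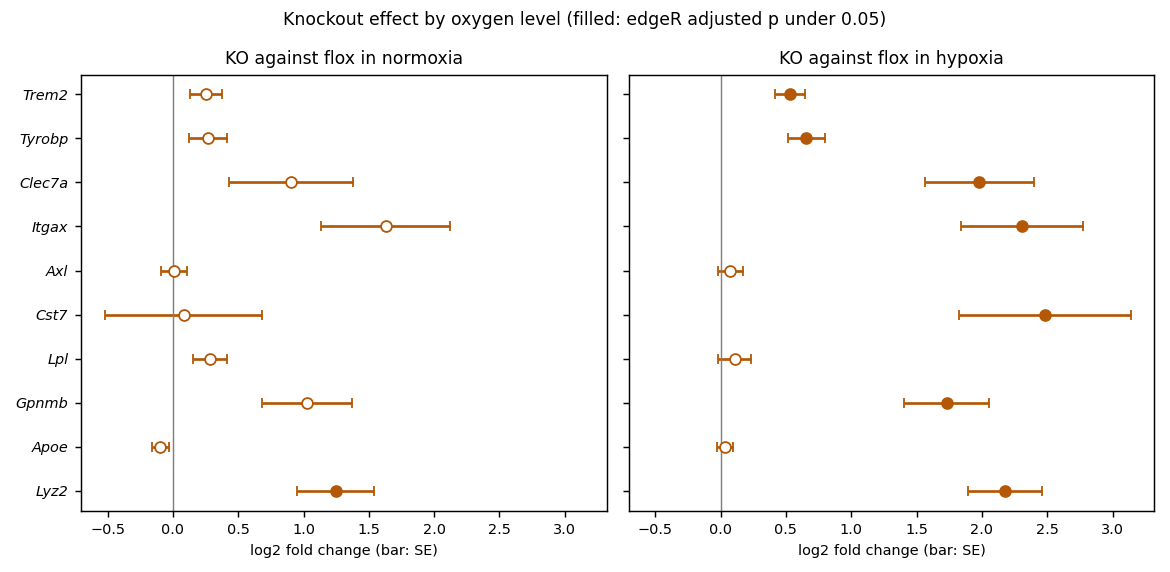
Log2 fold change of KO against flox for each gene in normoxia (left) and in hypoxia (right), with the SE as bars and filled points where the edgeR adjusted p was under 0.05. In normoxia Lyz2 (1.25) is the filled point, and in hypoxia 7 points are filled, with Itgax at 2.31, Cst7 at 2.48 and Lyz2 at 2.18 farthest to the right.

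The 7 genes called in hypoxia were each separated without overlap, against 11.5% of all genes with every KO library higher and 9.37% with every KO library lower. In normoxia 4 of the 10 (Trem2, Itgax, Gpnmb and Lyz2) had every KO library higher and 0 every KO library lower, against 10.5% and 8.7% of all genes. All 7 genes called were highest in KO hypoxia replicate 1, and 5 of them were lowest in replicate 2. Without replicate 1 the test called 6 of the 10, losing Cst7. In the 9 libraries with Y-linked transcripts (2 KO and 3 flox in hypoxia) it called 6, losing Trem2 at 0.52 (edgeR adjusted p = 0.0558), and in normoxia (2 against 2) it called 0. With a term for sex in the fit the counts were 7 in hypoxia and 1 in normoxia.

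Oxygen alone gave no call among the 10 genes. In KO brains, 0 of 10 were called in hypoxia against normoxia by edgeR, beside 0.897% of all genes, while DESeq2 called 4 and edgeR without the filter 5. Of all genes, 3209 had an unadjusted p under 0.05 in this comparison. The values nearest to the threshold were those of Lyz2 at 1.09 ± 0.26 (SE, adjusted p = 0.0625), Clec7a at 1.51 ± 0.39 (0.0819), Trem2 at 0.43 ± 0.11 (0.0831) and Tyrobp at 0.50 ± 0.14 (0.0979). Clec7a, Lyz2 and Tyrobp had every KO hypoxia library above every KO normoxia library and 0 members the reverse, against 6.59% and 6.04% of all genes. Without KO hypoxia replicate 2, the lowest library, edgeR called Lyz2, Trem2, Clec7a and Gpnmb, and without replicate 1 it called Lyz2 at 0.65 (adjusted p = 0.016). Lpl went the other way, at -0.28 ± 0.12 (adjusted p = 0.296), and was called at -0.43 (adjusted p = 0.0337) when KO hypoxia replicate 4, its high library, was left out.

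In flox brains, 0 of 10 were called in hypoxia against normoxia, beside 0.0222% of all genes, while 1497 genes had an unadjusted p under 0.05. None of the 10 was called there by DESeq2 or in any other setting tried. Without overlap, Trem2 lay higher (6.56% of all genes did) and Apoe lower (5.98%). Trem2 was at 9.46 ± 0.22 CPM in hypoxia and 8.52 ± 0.395 CPM in normoxia (SD, n = 3 each), a log2 difference of 0.15 ± 0.12 (SE). Cst7 had 9 counts in the 3 hypoxia libraries and 33 in the 3 normoxia libraries, and its log2 fold change was -1.44 ± 0.73 (edgeR adjusted p = 0.794). Cst7 was thus lowest in flox hypoxia brains of all 4 groups. Knockout effects were not shown to differ between oxygen levels: the interaction term called 0 of the 10 and 0% of all genes, while 1635 genes had an unadjusted p under 0.05 and DESeq2 called 5 genes, none of them a member. The interaction was 2.40 ± 0.90 for Cst7 (adjusted p = 0.625), 1.08 ± 0.64 for Clec7a (0.736), 0.93 ± 0.40 for Lyz2 (0.676), 0.70 ± 0.47 for Gpnmb (0.769), 0.39 ± 0.20 for Tyrobp (0.7) and 0.28 ± 0.17 for Trem2 (0.736).

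Levels per length (RPKM, reads scaled by gene length and library total) spanned from Apoe to Itgax and Cst7. In KO hypoxia brains the mean RPKM, deposited by the authors, was 642 for Apoe, 19.3 for Tyrobp, 16.7 for Lyz2, 8.96 for Axl, 2.80 for Trem2, 2.21 for Lpl, 1.199 for Gpnmb, 0.465 for Clec7a, 0.386 for Cst7 and 0.354 for Itgax. In flox hypoxia brains it was 615 for Apoe, 11.9 for Tyrobp, 8.34 for Axl, 3.63 for Lyz2, 1.9998 for Lpl, 1.90 for Trem2, 0.357 for Gpnmb, 0.115 for Clec7a, 0.0715 for Itgax and 0.0690 for Cst7. Lyz2 thus stood above Axl in KO hypoxia brains and below it in flox hypoxia brains. In normoxia the means were 638 RPKM in KO and 681 RPKM in flox brains for Apoe, 7.74 in KO and 3.25 in flox brains for Lyz2, and 0.199 in KO and 0.0641 in flox brains for Itgax. In KO hypoxia brains neighbours such as Tyrobp and Lyz2 (SD 3.0 and 8.6 RPKM, n = 4) or Clec7a, Cst7 and Itgax (SD 0.20, 0.21 and 0.18 RPKM) did not differ beyond their spread.

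The other 8 members were then set against Trem2 and Tyrobp themselves, by scaling each library to the mean log2 count of that pair. Of these 8, Apoe and Lyz2 belong to the early step that does not need Trem2. On this scale a positive log2 fold change means that a gene rose more than Trem2 and Tyrobp did. In hypoxia, 5 of the other 8 members were higher in KO than in flox: Lyz2 at 1.52 ± 0.18 (SE, edgeR adjusted p = 3.33e-10), Gpnmb at 1.06 ± 0.22 (5.43e-05), Itgax at 1.64 ± 0.36 (9.78e-05), Clec7a at 1.35 ± 0.38 (0.00153) and Cst7 at 1.83 ± 0.64 (0.00915). This scaling called 2.44% of all genes higher. Apoe, Lpl and Axl were lower on this scale, at -0.55 ± 0.14, -0.47 ± 0.15 and -0.54 ± 0.15. That is no feature of these genes, since 68% of all genes were called lower once the rise of Trem2 and Tyrobp was taken as 0. The call of Cst7 on this scale was lost without flox hypoxia replicate 1 (adjusted p = 0.098) or 2 (0.0508), and that of Axl when the 4 libraries holding Xist were left out (-0.46, 0.0555).

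**Figure D3:**
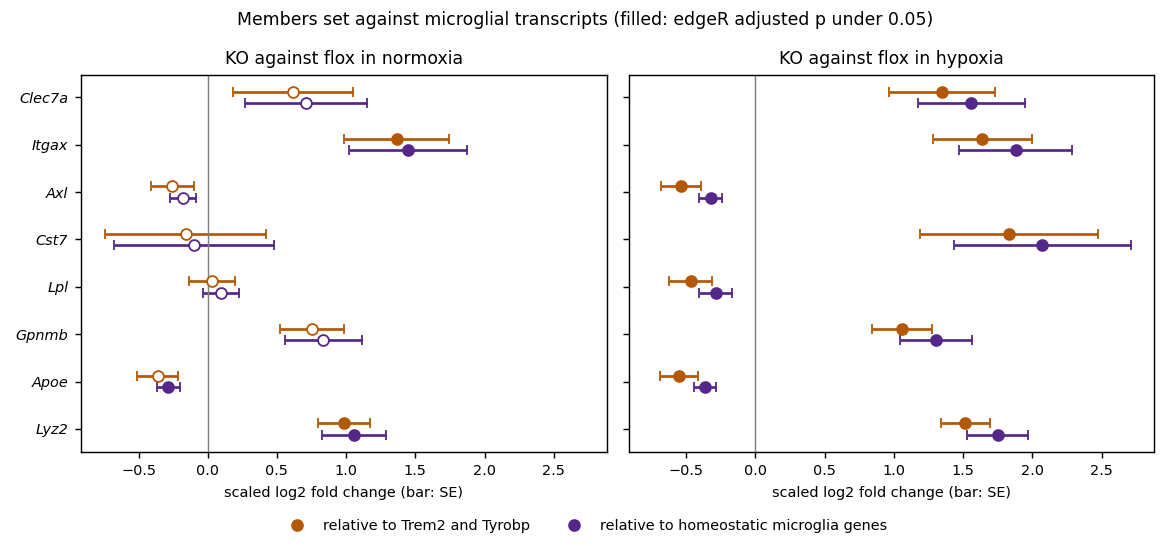
Log2 fold change of KO against flox after scaling each library to Trem2 and Tyrobp (brown) or to 16 homeostatic microglia genes (purple), in normoxia (left) and in hypoxia (right), with the SE as bars and filled points where the edgeR adjusted p was under 0.05. In hypoxia Clec7a, Itgax, Cst7, Gpnmb and Lyz2 lie right of 0 on both scales, and Axl, Lpl and Apoe lie left of it.

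In normoxia the same scaling called 2 of the 8 members higher in KO, Itgax at 1.36 ± 0.38 (SE, edgeR adjusted p = 0.0306) and Lyz2 at 0.98 ± 0.19 (0.000244), against 0.991% of all genes called higher and 1.21% lower. In the 9 libraries with Y-linked transcripts neither was called (adjusted p = 0.244 and 0.0952). Itgax also missed the threshold without flox normoxia replicate 2 or 3 or KO normoxia replicate 3, with adjusted p values of 0.137, 0.112 and 0.0846. Gpnmb lay just short of the threshold at 0.75 ± 0.23 (adjusted p = 0.0571).

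The log2 ratio of a gene to the receptor pair, taken in single libraries, is given as a description. What share of all genes had groups without overlap on this ratio was not computed. For Lyz2 it lay between 0.36 and 1.28 in KO hypoxia and between -0.06 and 0.33 in KO normoxia brains, against -1.15 to -0.68 in flox hypoxia and -1.16 to -0.57 in flox normoxia brains. Every KO library thus had more Lyz2 per unit of Trem2 and Tyrobp than every flox library. For Gpnmb the ratio lay between -1.37 and -0.27 in KO hypoxia, against -2.30 to -1.40 in flox hypoxia brains, and for Clec7a between -4.14 and -3.06 in KO hypoxia, against -5.08 to -4.55 in flox hypoxia brains. Both genes had all KO hypoxia libraries above all flox hypoxia libraries, by a narrow margin for Gpnmb. For Itgax it lay between -3.87 and -2.51 in KO hypoxia, against -5.79 to -4.03 in flox hypoxia brains, also apart. For Cst7 the groups overlapped, at -6.06 to -4.60 in KO hypoxia, against -8.96 to -5.77 in flox hypoxia brains.

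Scaling to 16 homeostatic microglia genes, such as P2ry12, Tmem119 and Cx3cr1, gave a like picture for 5 members and another for Trem2 and Tyrobp. In hypoxia, Cst7 (2.07), Itgax (1.88), Lyz2 (1.75), Clec7a (1.56) and Gpnmb (1.30) were higher in KO relative to these genes, against 3.77% of all genes called higher. Trem2 at 0.13 ± 0.10 (SE, edgeR adjusted p = 0.277) and Tyrobp at 0.25 ± 0.13 (0.0823) were not called. Apoe (-0.36), Lpl (-0.29) and Axl (-0.32) were lower on this scale, as were 58.9% of all genes. The call of Lpl was lost on leaving out flox hypoxia replicate 1 or 2 or KO hypoxia replicate 1, 2 or 3 (adjusted p 0.0646 to 0.141), that of Cst7 without flox hypoxia replicate 1 (0.0543), and that of Axl when the 4 libraries holding Xist were left out (0.138). In normoxia Itgax at 1.45 (adjusted p = 0.0395) and Lyz2 at 1.06 (0.0112) were higher and Apoe at -0.29 (0.0394) lower, against 1.75% and 8.29% of all genes. In the 9 libraries with Y-linked transcripts Lyz2 alone of these 3 remained called in normoxia.

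Other genes of the disease-associated state and of the pathway were read from lists, to be set beside the 6.78% of all genes called higher and 2.28% called lower in hypoxia, and the 1.96% called higher in normoxia. In hypoxia, 3 of the 5 other early-step genes rose in KO, namely H2-D1 (1.197 ± 0.17, SE), B2m (0.84 ± 0.10) and the cathepsin Ctsd (0.25 ± 0.08), the first a class I antigen-presenting heavy chain and the second its light chain. Ferritin Fth1 (0.07 ± 0.06) and Ctsb (0.07 ± 0.04) were not called. Of 6 other later-step genes 3 rose, the inhibitory receptor Lilrb4a (2.27 ± 0.50), the tetraspanin Cd9 (0.66 ± 0.10) and the growth factor Csf1 (0.53 ± 0.08), while Ctsl (0.16 ± 0.05) and the metalloproteinase inhibitor Timp2 (0.05 ± 0.06) were not called. The list medians were 0.25 and 0.60. In normoxia B2m alone rose, at 0.50 ± 0.10 (edgeR adjusted p = 0.014), among these 11 genes.

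Lysosomal and lipid genes linked to this state had 15 of 24 members higher and 1 lower in KO in hypoxia, with a median of 0.38, against 6.78% and 2.28% of all genes. Among them were Cybb (2.49 ± 0.37, SE), the catalytic chain of the phagocyte oxidase, Lgals3 (2.35 ± 0.44), a galectin of activated phagocytes, Cd52 (1.90 ± 0.32) and Spp1 (1.07 ± 0.28), or osteopontin. The cholesterol exporter Abca1 (0.17 ± 0.09) was not called. In normoxia 1 of the 24 rose, Cybb at 1.93 ± 0.38 (edgeR adjusted p = 0.012), and without KO hypoxia replicate 1 in the fit this count was 6. Chemokines and cytokines had 4 of 8 tested members higher in hypoxia, with Cxcl10 at 2.72 ± 0.44, Ccl12 at 2.49 ± 0.52, Ccl5 at 2.40 ± 0.63 and Cxcl16 at 0.92 ± 0.24, and 1 higher in normoxia, Cxcl10 at 2.30 ± 0.47 (adjusted p = 0.015). Without KO hypoxia replicate 1, and likewise with a term for sex, 2 of the 8 were higher in hypoxia. The interleukin Il1b was at 0.73 ± 0.50 in hypoxia and was not called.

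**Figure D4:**
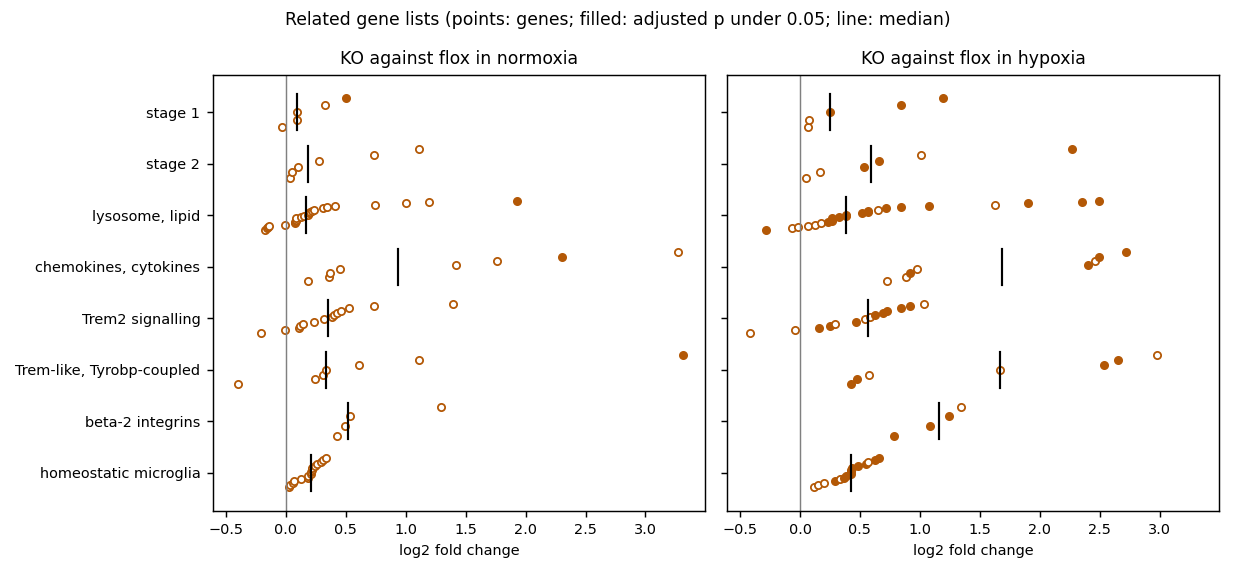
Log2 fold change of KO against flox for the genes of 8 related lists in normoxia (left) and in hypoxia (right), with a point per gene, filled where the edgeR adjusted p was under 0.05, and a line at each list's median. In hypoxia the medians lie between 0.25 for the early-step genes (stage 1) and 1.69 for chemokines and cytokines, and more points are filled than in normoxia.

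Downstream of Trem2 and Tyrobp, 8 of 14 signalling genes were higher in KO in hypoxia and 0 in normoxia, with medians of 0.57 and 0.35. Leaving out the 4 libraries holding Xist gave 5 higher in hypoxia, and without KO hypoxia replicate 1 in the fit 2 were higher in normoxia. The phospholipase Plcg2 rose by 0.92 ± 0.14 (SE), the exchange factor Vav1 by 0.85 ± 0.21, the kinase Syk by 0.73 ± 0.16 and the phosphatase Ptpn6 by 0.69 ± 0.20, whereas the adaptors Grb2 (-0.04 ± 0.03) and Lcp2 (0.59 ± 0.18, edgeR adjusted p = 0.0509) were not called. Of 7 tested Trem-like and other Tyrobp-coupled or related receptors, 4 rose in hypoxia. These were Treml4 (2.66 ± 0.62), Cd300lf (2.54 ± 0.72), Cd33 (0.47 ± 0.08) and Siglech (0.42 ± 0.09), and Treml4 rose in normoxia too (3.31 ± 0.66, adjusted p = 0.013). Trem1, a receptor of neutrophils and monocytes, was too scarce to test, with 43 counts in the 4 KO hypoxia libraries and 0 in the 3 flox hypoxia libraries. Replicate 1 held 30 of these counts, and replicates 2, 3 and 4 held 6, 5 and 2. Trem3, also too scarce, had 27 counts in KO hypoxia and 8 in flox hypoxia libraries. Scaled for depth, its ratio was 2.08, with a 95% interval of 0.919 to 5.295 that covers counting error only.

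Partners of single members were read in the same way. Of the 4 genes of Clec7a signalling, Syk rose in hypoxia, while Bcl10 (0.13 ± 0.07, SE) and Malt1 (0.17 ± 0.08) were not called. Among the ligands and sister receptors of Axl, the ligand Pros1 rose (0.88 ± 0.11), the receptor Tyro3 fell by 0.19 ± 0.04 on the log2 scale, and Gas6 (0.12 ± 0.05) and Mertk (0.14 ± 0.11) were not called. The beta-2 integrin genes that belong with Itgax had 3 of 4 members higher, Itgal (1.24 ± 0.29), the shared chain Itgb2 (1.08 ± 0.26) and Itgam (0.78 ± 0.17). Around the cathepsin inhibitor Cst7, the cathepsins Ctsh (1.51 ± 0.15) and Ctsc (0.83 ± 0.16) rose and Cst3 (0.14 ± 0.08) was not called. Of 11 receptors, cofactors and regulators of Apoe and Lpl, 1 rose, a share near that of all genes. It was the sterol sensor Nr1h3 (0.62 ± 0.15), while the receptors Lrp1 (-0.10 ± 0.06) and Vldlr (-0.08 ± 0.04) were not called. Csf1r, the receptor on which microglia depend, rose by 0.48 ± 0.07 and its ligand Il34 (0.03 ± 0.04) was not called. Of 15 microglial transcription factors 3 rose, Runx1 (1.09 ± 0.24), Irf8 (0.53 ± 0.16) and Tfeb (0.35 ± 0.09), at a list median of 0.02. This count was 1 without KO hypoxia replicate 1, 1 with a term for sex and 1 when the 4 libraries holding Xist were left out.

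Homeostatic microglia genes were also higher in KO in hypoxia, in 11 of 16, with a median of 0.42. They included Olfml3 (0.66 ± 0.11, SE), Sparc (0.63 ± 0.09), which endothelium and astrocytes also express, and Fcrls (0.55 ± 0.09), and P2ry12 (0.15 ± 0.06) and Tgfbr1 (0.20 ± 0.06) were not called. Their summed level ran from 838 to 1038 CPM in KO hypoxia and from 723 to 758 CPM in KO normoxia brains, against 674 to 689 CPM in flox hypoxia and 612 to 673 CPM in flox normoxia brains. In normoxia 0 of the 16 were called. Trem2 and Tyrobp thus lay at 0.53 and 0.66 beside a homeostatic median of 0.42, and the 5 other members called lay between 1.73 and 2.48.

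Markers of other cells that express some members were read beside them, and the lists differed. Border macrophage genes were higher in KO in hypoxia in 6 of 10, among them F13a1 (1.22 ± 0.20, SE), Cbr2 (1.62 ± 0.35), Ms4a7 (1.995 ± 0.53) and Pf4 (1.90 ± 0.55). Their summed level ran from 17.6 to 33.0 CPM in KO hypoxia and from 15.6 to 20.5 CPM in KO normoxia brains, against 8.91 to 9.57 CPM in flox hypoxia and 11.5 to 13.2 CPM in flox normoxia brains. Of 7 tested monocyte genes 3 rose in hypoxia, among them Plac8 (154 counts in 4 KO libraries, against 5 in 3 flox libraries) and the chemokine receptor Ccr2 (1.61 ± 0.45). The monocyte sum ran from 48.1 to 68.2 CPM in KO hypoxia and from 40.1 to 56.1 CPM in KO normoxia, against 46.3 to 53.0 CPM in flox hypoxia and 48.8 to 50.2 CPM in flox normoxia brains, and was mostly Vcan and Ace, which other brain cells express. Dendritic cell genes rose in 2 of 7, Siglech and Zbtb46, of which the first is also a microglial gene. They summed to 37.0 to 40.8 CPM in KO hypoxia, against 31.1 to 32.5 CPM in flox hypoxia brains. In normoxia the sum ran from 37.3 to 39.2 CPM in KO, against 32.7 to 35.9 CPM in flox brains.

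Neutrophil genes rose in 1 of 4 tested, S100a9, and summed to 3.02 to 13.4 CPM in KO hypoxia, against 1.48 to 2.96 CPM in flox hypoxia brains. The high value was that of replicate 1. This library also held all 6 counts of the defining marker Ly6g in KO hypoxia brains, against 0 counts in flox hypoxia brains. Flox normoxia replicate 3 held 2 Ly6g counts. Other neutrophil genes too scarce to test differed among themselves. KO hypoxia replicates 1 to 4 had 54, 7, 4 and 8 counts of Retnlg. They had 9, 4, 8 and 8 counts of Ltf and 1, 0, 4 and 3 counts of Camp. Lymphocyte genes summed to 2.79 to 3.69 CPM in KO hypoxia, against 1.10 to 1.64 CPM in flox hypoxia brains, with 1 of 5 called. Astrocyte genes, of which Gfap (1.67 ± 0.15, SE) and Vim (2.04 ± 0.16) rose, had 4 of 8 higher and 1 lower. All 8 endothelial genes were higher in KO at both oxygen levels. The 6 erythroid genes summed to 3409 to 17400 CPM in KO hypoxia, against 449 to 671 CPM in flox hypoxia brains. Their sum was 974 to 1701 CPM in KO normoxia, against 139 to 261 CPM in flox normoxia brains, with 5 of the 6 called higher there. In normoxia 1 of 10 border macrophage, 0 of 7 monocyte, 0 of 7 dendritic cell and 0 of 4 neutrophil genes were called. Lymphocyte genes had 2 of 5 called higher in normoxia, against 1.96% of all genes. They summed to 2.34 to 2.73 CPM in KO normoxia, against 0.790 to 1.30 CPM in flox normoxia brains. The monocyte genes Plac8 and Ccr2, not called there, had 53 and 199 counts in KO normoxia brains, against 9 and 61 in flox normoxia brains. Without KO hypoxia replicate 1 the counts in hypoxia were 3 of 10 border macrophage, 2 monocyte, 0 neutrophil, 0 lymphocyte and 8 of 16 homeostatic genes higher, and in normoxia 2 of 10 border macrophage, 2 monocyte and 2 of 16 homeostatic genes. The part of these cells in the members' differences was not tested.

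**Figure D5:**
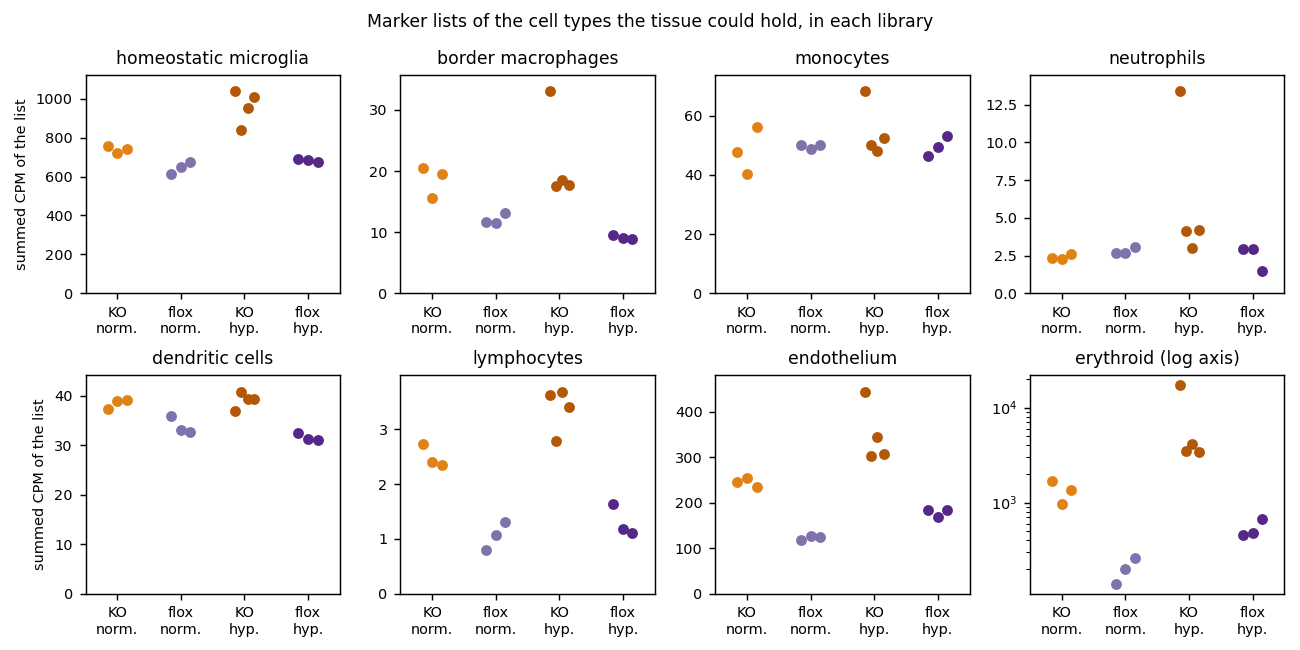
Summed CPM of 8 marker lists in each library, by genotype and oxygen level, on axes that start at 0 except for the erythroid list, which has a log axis. KO hypoxia replicate 1 is the highest point for border macrophages (33.0), monocytes (68.2), neutrophils (13.4) and erythroid genes (17400). It is also the highest for endothelium (445) and homeostatic microglia (1038), but not for dendritic cells or lymphocytes. Homeostatic microglia genes are higher in all 4 KO hypoxia libraries than in the flox hypoxia libraries.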

How the data were processed

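Per the labels and the series' design text, poly(A) RNA of brain tissue was sequenced with a stranded kit from RNA with an integrity number above 8. The authors deposited raw counts per gene and RPKM values for 13 libraries. The submitters' processing notes list HISAT2, edgeR and GRCm39 with no role for any. Which counter, annotation and strand setting were used is not given in the sources used here. In the authors' table, RPKM equal the counts over column total and 1 length per gene, so they carry no composition factor. Groups and replicate numbers come from the sample titles.

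The test on counts was that of edgeR 4.0.16 under R 4.3.3 (filterByExpr, TMM, 1 mean per group, quasi-likelihood F test) for 5 contrasts over 22507 genes, with Benjamini and Hochberg adjustment over all of them and a threshold of 0.05. The F statistic gave the SE of each log2 fold change. Further fits scaled libraries to the mean log2 count of Trem2 and Tyrobp or of 16 homeostatic microglia genes, and their SE takes that scale as known. CPM are TMM-scaled, and list sums are sums of them. Total counts of 42090437 to 71216636 make 3 counts, the most a count of 0 allows, 0.0421 to 0.0713 CPM, for counting error only. No library repeated another (chi-square per degree of freedom at least 4.44 within groups). The labels name no animals, so p-values reflect how these libraries spread, which may be technical.

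The 10 members, the 24 gene lists and the tests were chosen with earlier results of these data known, so no count is independent support. Genes named from a list are up to 4 called by size of change in hypoxia and up to 2 of the most abundant not called. Trem1, Trem3, Ly6g, Retnlg, Ltf and Camp, too scarce to test, were named after their values were seen. The value of 1 gene that the rule names is not reported here, although counts include it. Replicate numbers did not pair libraries: of 18 same-numbered pairs across groups 1 had a correlation of deviations over 0.1 (-0.0177 to 0.137). Alternatives were scaling by RLE or by column totals alone, no filter or at least 1 CPM in 3 libraries, DESeq2 1.42.0, limma 3.58.1 with RPKM on the log2 scale at a pseudocount of 1 or 0.1, a replicate block, only the libraries compared, a sex term, leaving out each library, Tyrobp alone or summed list counts as the scale and, added after the data were seen, only the 9 libraries with Y-linked transcripts. On simulated counts for the 22507 genes edgeR called 73.1% of genes changed 1.5-fold and 92.5% of those changed 2-fold for KO against flox in normoxia. In hypoxia it called 79.1% and 91.0%. The changed genes were drawn only from genes above a set mean count. These shares therefore do not cover members as scarce as Cst7, Clec7a and Itgax. Promoter sequences are RefSeq's (GRCm38.p6), held for 8 of the 10 members.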

Additional observations from a re-analysis of the deposited data

Results flagged for a closer look

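Each group of 4 or more libraries was checked for a library standing far from its neighbours, which only the KO hypoxia group allowed. Of 20 checks, over the 10 members and 10 marker sums, 7 were met, where chance gives about 1 in 20. All checks use the same 4 libraries, so the 7 are not separate departures from chance. In KO hypoxia replicate 4, Apoe was at 1559 CPM, with the next library at 1314 CPM, and Lpl was at 29.8 CPM, with the next at 21.2 CPM. The other 5 concern KO hypoxia replicate 1. Axl was at 54.7 CPM there, with the next library at 41.8 CPM, and Lyz2 was at 38.9 CPM, with the next at 17.1 CPM. Border macrophage genes summed to 33.0 CPM, with the next at 18.6 CPM. Neutrophil genes summed to 13.4 CPM, with the next at 4.17 CPM. Erythroid genes summed to 17400 CPM, with the next at 4168 CPM. The part of these cells in the levels of Axl and Lyz2 in that library was not tested. Without replicate 1, Lyz2 was still higher in KO than in flox in hypoxia (1.74, edgeR adjusted p = 3.79e-07), and Axl was at -0.04 (0.809).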

How the results depend on the processing

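The count of members higher in KO in hypoxia stayed at 6 or 7 of 10 in every alternative run, and lower at 0, also relative to Trem2 and Tyrobp at 4 or 5 higher. In normoxia the 1 member higher became 3 without the filter, 2 with DESeq2, 2 with only the libraries compared, 0 with limma on log2(RPKM + 1), 0 in the 9 libraries with Y-linked transcripts, 0 to 0 on leaving out 1 of the 6 normoxia libraries and 2 without KO hypoxia replicate 1. Ranges on leaving out a library cover the libraries compared. For hypoxia against normoxia in KO brains, the 0 higher became 1 without the composition factor, 5 without the filter, 4 with DESeq2 and 0 to 4 on leaving out a library (0 to 1 lower). Relative to Trem2 and Tyrobp, the 2 higher in normoxia became 0 in the 9 libraries and 1 to 3 on leaving out a library. Relative to homeostatic genes, the 2 higher became 1 with summed counts, 1 in the 9 libraries and 1 to 2 on leaving out a library, and the 1 lower became 0 in the 9 libraries and 0 to 0 on leaving out a library. The replicate block gave 6 members higher in hypoxia and 1 in normoxia, and 3 relative to Trem2 and Tyrobp in normoxia, with Cst7 in hypoxia at adjusted p = 0.0637. The causes were not tested. Cst7 has no value under the filter of 1 CPM.

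Of 1343 alternative values of single members, 1229 kept direction and side of the threshold and 40 changed sign, none of them called before or after. In KO against flox in hypoxia, the replicate block gave -0.043 for Apoe and -0.044 for Lpl, the sex term -0.0028 for Apoe, and the 9 libraries -0.054 for Apoe and -0.021 for Lpl. In the 9 libraries, hypoxia against normoxia in flox was -0.14 for Itgax and -0.031 for Gpnmb, the interaction -0.0037 for Apoe, and KO against flox in normoxia -0.057 for Lpl and 0.31 for Cst7 relative to Trem2 and Tyrobp and 0.49 for Cst7 relative to homeostatic genes. Apoe in hypoxia against normoxia in KO was 0.0088 without the composition factor and 0.0046 with limma at either pseudocount. On leaving out a library, KO against flox in normoxia ran from -0.23 to 0.61 for Cst7 and from -0.049 to 0.044 for Axl. In hypoxia it ran from -0.038 to 0.066 for Apoe, -0.039 to 0.17 for Lpl and -0.039 to 0.15 for Axl. Hypoxia against normoxia in flox ran from -0.14 to 0.79 for Itgax, -0.030 to 0.36 for Gpnmb, -0.024 to 0.24 for Tyrobp and -0.011 to 0.10 for Axl. In KO it ran from -0.083 to 0.034 for Apoe, and the interaction from -0.048 to 0.14 for Axl. Relative to Trem2 and Tyrobp in normoxia the ranges were -0.050 to 0.16 for Lpl and -0.41 to 0.28 for Cst7, and relative to homeostatic genes -0.41 to 0.41 for Cst7 and -0.000797 to 0.13 for Trem2.

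Over all genes, the 441 higher and 83 lower in normoxia became 740 and 255 without the filter, 664 and 210 with DESeq2 and 212 and 37 with limma on log2(RPKM + 1), and the 513 lower in hypoxia became 243 without the composition factor and 263 with the replicate block. Hypoxia against normoxia in KO, 140 higher and 62 lower, became 602 and 231 without the filter, 475 and 280 with DESeq2 and 28 and 2 with only the libraries compared. Hypoxia against normoxia in flox, 5 higher, became 104 without the filter and 49 with DESeq2. RLE scaling and no composition factor moved the median of all genes by at most 0.030. Depth limits Cst7, Clec7a and Itgax, with at most 47 counts in the 3 flox hypoxia libraries together.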
